A study of Mus musculus with 6 samples.

Results

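The genes described here are 38 genes of G2 phase and mitosis, chosen by name: the cyclins and kinases that bring a cell into mitosis, the spindle checkpoint and the machinery of anaphase, the mitotic kinesins, the proteins of the centromere and the chromosomal passenger complex, and proteins of the spindle, the midzone and chromosome structure. They were read in mGLUTag cells, a mouse line of intestinal L-cells, the cells that secrete glucagon-like peptide-1. All cells had been held in low serum, exposed to forskolin, which raises cAMP, to bring their circadian clocks into step, and returned to growth medium, and total RNA was taken after 4 h (3 samples) or 16 h (3 samples). No untreated cells were among these 6 samples, and each sample was read on 1 array of a mouse Illumina BeadChip. The labels number the samples 1 to 3 at each time without saying whether they were separate cultures, so the errors and p-values below measure the spread between these samples, which may be technical. Of the 38 genes, 37 had at least 1 probe under the listed symbol, 72 probes in all of the 45281 on the array. A gene was read on its brightest probe and counted as detected when that probe's mean intensity over the 6 arrays was above the noise limit, the 99th percentile of the sign-turned values below 0. On that rule 31 of the 37 were detected, beside 12191 of all 30854 genes.

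Most of these genes are silent in resting cells and are switched on late in the cell cycle. Their promoters are held down in G0 and G1 by a repressor complex called DREAM and are activated in G2 by MYBL2 and FOXM1, and the complex reaches them through a short element, the cell cycle genes homology region, while the factor NF-Y binds CCAAT boxes beside it. CDC2A, the older symbol of the kinase Cdk1, joins cyclin B to start mitosis. The spindle checkpoint then holds the anaphase promoting complex until every kinetochore is attached. Once it is released, the complex marks cyclin B and securin for destruction and the chromosomes part.

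Promoter windows of 300 bases, from 250 bases before to 50 bases after the RefSeq start site (GRCm38.p6), could be matched to 32 of the 38 genes. At least 1 copy of TTTGAA, searched on both strands, lay in the windows of 21 of the 32 (65.6%), against 20.2% of all 27025 genes with a window. The variant TTTAAA, which reads the same on both strands, lay in 9 (28.1% against 14.9%). CCAAT, on either strand, lay in 25 (78.1% against 41.1%), and 18 held 2 or more copies in a window (56.2% against 13.3%). The 4 windows printed here are those of NDC80 and AURKA, the members with the smallest p-values in the comparison of the time points, and those of CCNB1 and CDC2A, the partners that start mitosis. NDC80 lies at chr17:71526808-71527107, AURKA at chr2:172370521-172370820, CCNB1 at chr13:100786437-100786736 and CDC2A at chr10:69352863-69353162, all on the minus strand. Capitals mark the matches of these motifs on either strand.
NDC80: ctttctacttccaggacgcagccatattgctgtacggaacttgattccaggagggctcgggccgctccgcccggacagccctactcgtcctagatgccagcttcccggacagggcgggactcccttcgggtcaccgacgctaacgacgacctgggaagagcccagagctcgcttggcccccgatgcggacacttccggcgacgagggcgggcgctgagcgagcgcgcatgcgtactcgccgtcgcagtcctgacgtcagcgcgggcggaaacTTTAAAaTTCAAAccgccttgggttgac
AURKA: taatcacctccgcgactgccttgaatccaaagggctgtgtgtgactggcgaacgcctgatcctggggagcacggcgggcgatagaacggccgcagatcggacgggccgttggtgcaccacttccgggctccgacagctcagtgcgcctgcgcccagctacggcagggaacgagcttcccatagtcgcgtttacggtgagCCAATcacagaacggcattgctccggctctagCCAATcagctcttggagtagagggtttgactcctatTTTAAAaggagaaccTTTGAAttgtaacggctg
CCNB1: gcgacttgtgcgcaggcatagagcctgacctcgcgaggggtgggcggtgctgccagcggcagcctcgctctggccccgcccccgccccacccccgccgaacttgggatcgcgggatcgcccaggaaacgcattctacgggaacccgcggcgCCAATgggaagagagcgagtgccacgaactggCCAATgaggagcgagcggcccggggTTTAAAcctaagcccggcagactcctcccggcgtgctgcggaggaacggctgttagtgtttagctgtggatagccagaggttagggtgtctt
CDC2A: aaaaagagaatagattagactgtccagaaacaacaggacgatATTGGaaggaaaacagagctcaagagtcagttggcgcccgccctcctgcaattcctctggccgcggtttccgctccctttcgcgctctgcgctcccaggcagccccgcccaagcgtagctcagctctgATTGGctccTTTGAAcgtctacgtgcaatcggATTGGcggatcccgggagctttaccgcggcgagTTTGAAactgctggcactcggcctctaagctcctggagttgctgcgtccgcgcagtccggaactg
The NDC80 window held 1 TTTGAA and 1 TTTAAA and no CCAAT, and the AURKA window held 1 of each of the hexamers and 2 CCAAT. In CCNB1 there was 1 TTTAAA, beginning at position -42 from the start site, with 2 CCAAT, and in CDC2A there were 2 TTTGAA and 3 CCAAT. These matches describe letters in the windows and not bound sites.

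The arrays differed in overall brightness. Mean intensity was 291 to 354 at 4 h and 216 to 246 at 16 h, a ratio of 1.37 between the time means, and between 16964 and 17847 probes of an array lay above its noise limit. Log2 intensities of any 2 arrays correlated across probes at r = 0.989 to 0.994, within a time point and between them alike, where probes are not independent replicates. Of 12 L-cell markers 10 were detected, glucagon (GCG), INSL5 and CHGA among them, while PYY and PCSK1 were not. The smallest p-values in that list were those of INSL5 and GCG. Their log2 changes, 4 h minus 16 h, were 0.77 (adjusted p = 0.369) and 0.35 (adjusted p = 0.461). Of the 10 markers, 7 had a log2 change above 0 and 3 below, and the lowest was -0.35. At limma's unadjusted p under 0.05, 2 were higher at 4 h and 1 lower (5.82% and 5.19% of detected genes). Of the markers of other cell types, 1 of 7 for enterocytes (VIL1, log2 change -0.12), 1 of 6 measured for goblet and Paneth cells (TFF3, -0.26) and 1 of 8 for fibroblasts and immune cells (COL1A1, -0.06) were detected. The 3 probes of 18S ribosomal RNA were high on 3 arrays, 4 h replicate 1, 4 h replicate 3 and 16 h replicate 1. In a fit that also held the time point, they stood 1.78 to 2.70 log2 units over the other 3.

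No member was called different between 4 h and 16 h, and the estimated changes were small. After normalization between arrays, the median log2 change of the 31 detected members, 4 h minus 16 h, was 0.04, and single members ran from -0.11 to 0.25. None of the 31 passed the threshold of 0.05 on limma's p adjusted over all probes, which 4 of all 45281 probes (0.00883%) passed, and the smallest adjusted p of a member was 0.687. The log2 change was above 0 for 24 of the 31 (77.4%), against 50.4% of all detected genes, with a median over those genes of 0.0016. That count was 17 without 16 h replicate 1 (49.1% of detected genes) and 16 with linear scaling on detected probes (46.4%). At an unadjusted p under 0.05, 2 members were higher at 4 h, NDC80 and AURKA, where 5.82% of detected genes were, and none was lower, where 5.19% were. No member was below 0.05 when the variance was trended on brightness and fitted robustly, or with an offset of 16, and only 1 was without 4 h replicate 1 or without 16 h replicate 1. Read on the brightest probe, NDC80 and AURKA were also the 2 members whose 4 h arrays all lay above their 16 h arrays (6.57% of detected genes), and no member had the reverse (5.67%). In bulk samples, a level does not tell the number of cells in mitosis from the amount of RNA in each.

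**Figure D1:**
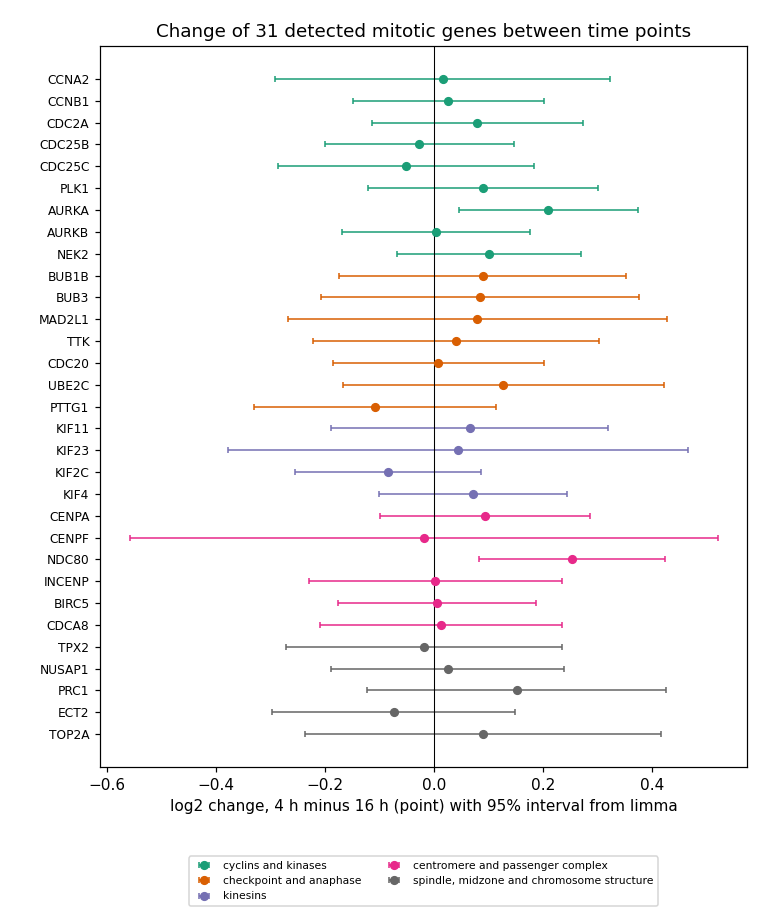
Log2 change, 4 h minus 16 h, of the 31 detected genes (horizontal axis; points, with bars for the 95% interval from limma), in the 5 groups by colour. The intervals of 29 genes hold 0, and those of NDC80 and AURKA lie above it, though with a trended and robust variance all 31 intervals hold 0.

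The intervals describe the precision of these 6 arrays after the background correction and quantile normalization, relative to the shift that the normalization removes. For 30 of the 31 members the 95% interval of the log2 change lay within -0.5 and 0.5, and for 29 it held 0. The distance from the estimate to either end ran from 0.164 to 0.54, the widest being that of CENPF. With a trended and robust variance, 30 again lay within -0.5 and 0.5 and all 31 held 0, with distances of 0.19 to 0.479. Both sets of intervals were computed after the background correction. With no such correction the dim members NEK2, UBE2C and PTTG1 had log2 changes of 0.60 (SE 0.39), 0.36 (SE 0.45) and -0.21 (SE 0.21). For these dim members the bounds of -0.5 and 0.5 therefore depend on that correction. The brighter NDC80 and AURKA moved little, to 0.27 (SE 0.07) and 0.22 (SE 0.06). The deposited intensities, before any normalization, give another view of the same genes. On that scale all 31 members had a higher mean at 4 h, with ratios from 1.28 to 2.06 and a median of 1.45, and the median ratio over all detected genes was 1.46. In 21 of the 31 the 4 h arrays all lay above the 16 h arrays, against 48.6% of detected genes. What share of that brightness is RNA and what share is labelling or scanning cannot be told apart in these files.

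Among the cyclins and kinases, 9 of 11 members were detected, 7 with a log2 change above 0, and the group's median was 0.03. That median was 0.0041 without 4 h replicate 2 and 0.08 without 16 h replicate 2. AURKA, the kinase that matures the spindle poles, had deposited intensities of 2790.7, 2080.4 and 2452.6 on the 4 h arrays against 1463.8, 1640.8 and 1318.1 on those of 16 h. Its normalized log2 intensities were 11.15, 10.98 and 11.05 on the 4 h arrays against 10.79, 10.91 and 10.85 on those of 16 h. Every 4 h array lay above every 16 h array on both scales. The log2 change was 0.21 (SE 0.07, adjusted p = 0.80), a 1.16-fold difference that was not significant over all probes. CDC2A, the catalytic kinase, read 12.41, 12.31 and 12.30 on the 4 h arrays against 12.41, 12.13 and 12.24 on those of 16 h. Here 16 h replicate 1 was as high as the brightest 4 h array, and the log2 change of 0.08 (SE 0.09, adjusted p = 0.963) was within the spread. CCNB1, the cyclin that activates it, read 11.18, 11.20 and 11.08 on the 4 h arrays against 11.04, 11.25 and 11.09 on those of 16 h. The highest and the lowest array of CCNB1 both belonged to 16 h, and its log2 change was 0.03 (SE 0.08, adjusted p = 0.986; 95% interval -0.15 to 0.20).

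PLK1, a kinase needed from mitotic entry to cytokinesis, read 9.83, 9.95 and 9.94 on the 4 h arrays against 9.64, 9.98 and 9.82 on those of 16 h, with a log2 change of 0.09 (SE 0.09, adjusted p = 0.962). As with CCNB1, 16 h replicate 2 was its brightest array and 16 h replicate 1 its dimmest, and without the latter the change of PLK1 was 0.0041. NEK2, a kinase that splits the centrosomes, was dim, above noise on 5 arrays, at 6.32, 6.34 and 6.35 on the 4 h arrays against 6.34, 6.26 and 6.12 on those of 16 h. Its log2 change was 0.10 (SE 0.07, adjusted p = 0.953), but it was 0.60 with no background correction and, relative to the shift of all detected genes, -0.12 when the arrays were left without quantile normalization. The other 4 detected members of the group, cyclin A (CCNA2), the Cdk1-activating phosphatases CDC25B and CDC25C, and the passenger complex kinase AURKB, had log2 changes between -0.05 and 0.02. CCNA2 was above noise on 3 of the 6 arrays. The probes of CCNB2 and of the Cdk1-binding protein CKS2 were above noise on 0 arrays, which does not show that the messages were absent from the cells.

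Of the checkpoint and anaphase genes, 7 of 8 were detected, 6 with a log2 change above 0, with a median of 0.08. That median was 0.01 without 4 h replicate 3 and 0.0044 with detected probes averaged. MAD2L1, the checkpoint protein that binds the activator of the anaphase promoting complex, read 12.02, 11.74 and 11.39 on the 4 h arrays against 11.83, 11.45 and 11.63 on those of 16 h. The 4 h arrays alone spanned its whole range, and the log2 change was 0.08 (SE 0.15, adjusted p = 0.981). That change was -0.07 without 4 h replicate 1 and 0.25 without 4 h replicate 3. CDC20, that activator, read 10.85, 10.96 and 10.89 on the 4 h arrays against 10.94, 11.01 and 10.73 on those of 16 h, where the 16 h arrays spanned the range. The log2 change of CDC20 was 0.01 (SE 0.09, adjusted p = 0.998). Without 16 h replicate 3 it was -0.07, and without 16 h replicate 2 it was 0.07.

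UBE2C, the ubiquitin-conjugating enzyme of the complex, read 6.93, 6.50 and 6.55 on the 4 h arrays against 6.34, 6.55 and 6.70 on those of 16 h. The first 4 h array stood above the rest, and the log2 change of 0.13 (SE 0.13, adjusted p = 0.962) became -0.01 without it. PTTG1, the securin that the complex destroys, had the lowest change of all members. It read 6.85, 6.96 and 6.81 on the 4 h arrays against 6.87, 6.88 and 7.19 on those of 16 h, with 16 h replicate 3 the brightest, and a log2 change of -0.11 (SE 0.10, adjusted p = 0.959), which was -0.0042 without that array. The checkpoint proteins BUB1B, BUB3 and TTK had log2 changes of 0.09, 0.08 and 0.04. Neither of the probes of the checkpoint kinase BUB1 was above noise on any array.

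Of the 6 kinesins, 4 were detected, 3 with a log2 change above 0 and a median of 0.06, which was -0.06 without 16 h replicate 1. KIF4, a chromosome-bound motor of the spindle midzone, read 9.86, 9.74 and 9.93 on the 4 h arrays against 9.75, 9.84 and 9.71 on those of 16 h. Its log2 change was 0.07 (SE 0.08, adjusted p = 0.962), and the groups overlapped. KIF2C, which takes microtubules apart at the centromere, read 9.49, 9.54 and 9.33 on the 4 h arrays against 9.54, 9.57 and 9.50 on those of 16 h. Its log2 change was -0.08 (SE 0.08, adjusted p = 0.959), with 4 h replicate 3 the lowest array, and 0.03 relative to all detected genes without quantile normalization. KIF11, which pushes the spindle poles apart, and KIF23, a motor of the central spindle, had log2 changes of 0.07 and 0.05. The probe of KIF20A was above noise on 2 arrays, both at 16 h, and that of the kinetochore motor CENPE on 0.

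All 6 members of the centromere and passenger group that had a probe were detected, 5 with a log2 change above 0, and the median was 0.01, which was -0.03 without 16 h replicate 1. NDC80, the kinetochore protein that grips microtubules, had the largest change of all members. Its deposited intensities were 1366.2, 1298.4 and 1435.5 on the 4 h arrays against 839.3, 816.2 and 726.3 on those of 16 h, and its normalized log2 intensities were 10.16, 10.35 and 10.27 on the 4 h arrays against 10.05, 9.94 and 10.05 on those of 16 h. All 4 h arrays lay above all 16 h arrays, with a log2 change of 0.25 (SE 0.08, adjusted p = 0.687), a 1.19-fold difference that was not significant over all probes. A second NDC80 probe, above noise on 0 arrays, gave -0.26 (adjusted p = 0.706) from deposited values between -8.6 and 10.1.

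CENPA, the histone variant that marks centromeres, read 13.71, 13.72 and 13.49 on the 4 h arrays against 13.52, 13.47 and 13.64 on those of 16 h. Replicates 1 and 2 of 4 h stood above the rest and replicate 3 fell among the 16 h arrays, with a log2 change of 0.09 (SE 0.08, adjusted p = 0.959). BIRC5, or survivin, a passenger complex subunit, read 11.93, 11.88 and 11.80 on the 4 h arrays against 11.81, 11.79 and 12.00 on those of 16 h. Its log2 change was 0.01 (SE 0.08, adjusted p = 0.998), and the sign changed in 5 of 16 alternatives. Those 16 include trended variance and the replicate block, which cannot move the estimate. The passenger subunits INCENP and CDCA8 stood at 0.00 and 0.01, and CENPF, a kinetochore protein, at -0.02. NUF2, the partner of NDC80, had no probe under its own symbol, and the probe under its synonym CDCA1 was above noise on 0 arrays.

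In the group of spindle, midzone and chromosome structure, 5 of 6 members were detected, 3 with a log2 change above 0, with a median of 0.03, which was -0.07 without 4 h replicate 3 and 0.10 without 4 h replicate 2. PRC1, which bundles the midzone microtubules, read 11.66, 11.70 and 12.04 on the 4 h arrays against 11.59, 11.84 and 11.52 on those of 16 h. The third 4 h array stood above the rest, and the log2 change of 0.15 (SE 0.12, adjusted p = 0.957) was 0.03 without it and 0.25 without 16 h replicate 2. NUSAP1, which holds microtubules at the chromosomes, read 11.33, 11.19 and 11.54 on the 4 h arrays against 11.32, 11.39 and 11.28 on those of 16 h. The 4 h arrays spanned its range, with a log2 change of 0.03 (SE 0.09, adjusted p = 0.990). That change was -0.07 without 4 h replicate 3 and 0.10 without 4 h replicate 2. TOP2A, the topoisomerase that untangles sister chromatids, had a log2 change of 0.09, the spindle assembly factor TPX2 -0.02, and ECT2, which starts cleavage, -0.07. Neither of the probes of HMMR was above noise on any array.

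**Figure D2:**
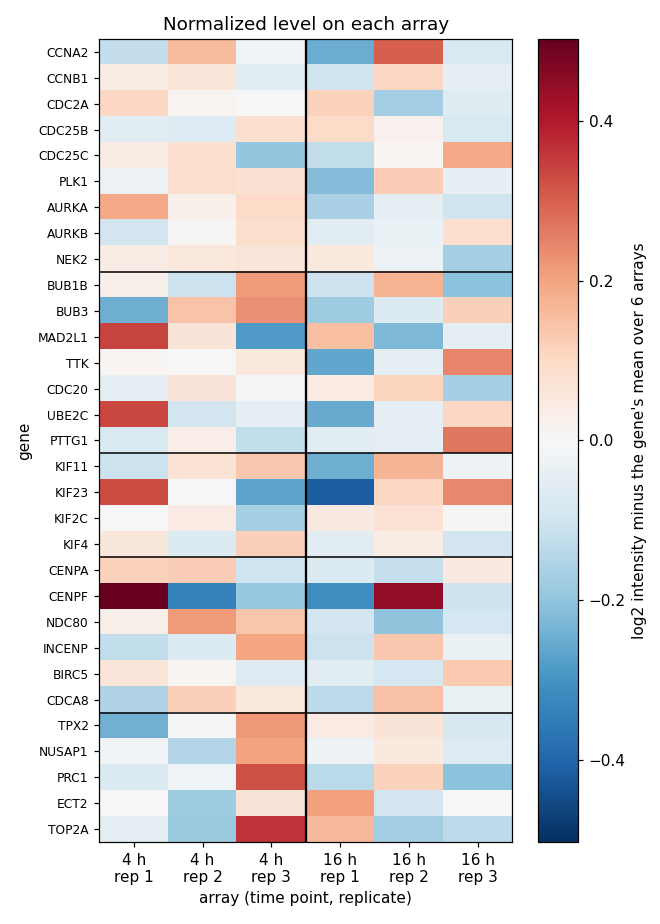
Normalized log2 intensity of the 31 detected genes (rows, grouped) on each of the 6 arrays (columns), as the difference from the gene's mean, red above and blue below. The column of 16 h replicate 1 is mostly blue, with a median of -0.09, and most genes hold both colours within a time point.

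The number of members above 0 depended on single arrays. The members' median log2 intensity, each gene centred on its mean, was 0.00, 0.02 and 0.06 on the 4 h arrays and -0.09, 0.02 and -0.05 on the 16 h arrays. The second 16 h array thus stood above 2 of the 4 h arrays, and the first was the lowest of all. Of the 16 h arrays, replicate 1 was the lowest for 15 of the 31 members (48.4%, against 39.9% of detected genes), and replicate 2 the highest for 15 (48.4% against 37.2%). Without 16 h replicate 1, 17 of 31 members stood above 0 (49.1% of detected genes), and leaving out each of the other arrays gave 20 to 23. With the 18S separation as a term in the fit of all 6 arrays, 23 members stood above 0 (51.4% of detected genes), with a median of 0.05. Within the 3 arrays that were high for 18S, 22 members were higher at 4 h, and within the other 3, 15 were, against 52.1% and 51.6% of detected genes, but each of these splits has 1 array at one of the time points. None of the 53 detected member probes passed the adjusted threshold for a difference between the arrays high for 18S and the others, where 0.888% of detected probes did. The largest estimates were 0.47 and 0.40 on 2 probes of BIRC5, 0.44 on one of KIF4 and 0.41 on one of CDC20, none of them the probes used for these genes above. Of the probes used, those furthest from 0 were TOP2A (0.33), CCNA2 (-0.29) and KIF23 (-0.28). In that fit the change of TOP2A between the time points was -0.02.

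The count also moved with the normalization. Linear scaling of the arrays on detected probes left 16 of 31 members above 0 (46.4% of detected genes), and cyclic loess 21 (48.2%). Without normalization, or with scaling to each array's median, all detected genes shifted by a median of 0.37 or 0.29. Relative to that shift the values of both settings are the same, since median scaling moves each array by a constant, and 25 members stood above 0. On the unshifted values 6 members passed the adjusted threshold, all higher at 4 h, without normalization, where 15.1% of detected genes did, and with median scaling 2 did, NDC80 and AURKA, where 5.65% did.

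**Figure D3:**
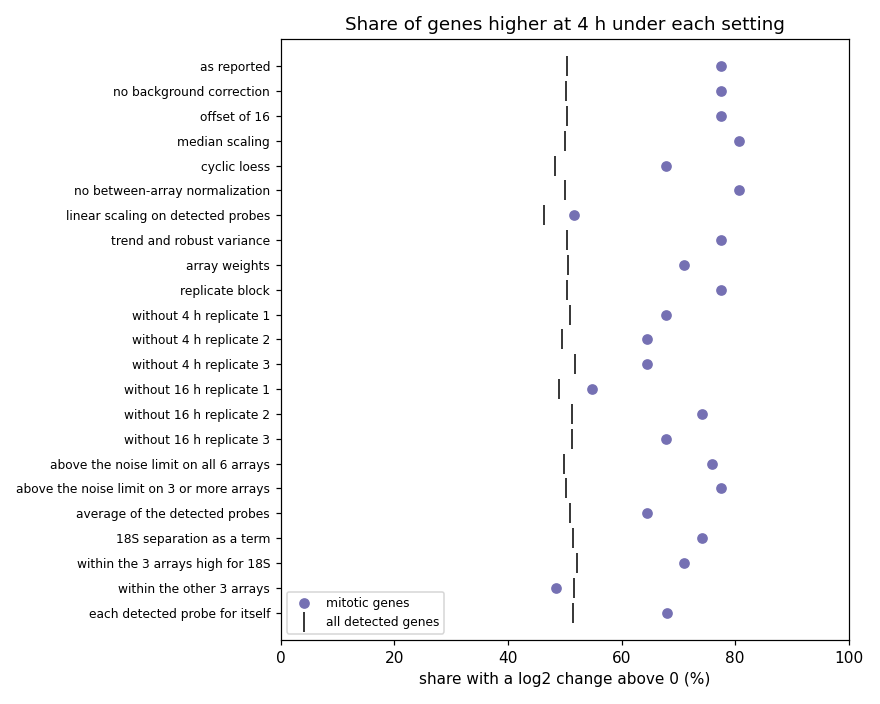
Share of genes with a log2 change above 0 (horizontal axis, %) under the reported processing and each alternative (rows), for the mitotic genes (points) and all detected genes (bars). The points run from 48.4% to 80.6% and the bars stay between 46.4% and 52.1%.

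Different probes of the same member did not always lie on the same side of 0. Of the 31 detected members, 14 had more than 1 detected probe, and in 6 of these the probes lay on both sides. CDC20 was read by 4, with log2 changes of 0.01 on the brightest and -0.13, -0.23 and -0.16 on the others. The third, at -0.23, had an adjusted p of 0.919. CDC25C gave -0.05 and -0.26 (adjusted p = 0.883) on 2 detected probes, and on the second of these every 4 h array lay below every 16 h array. The same order held on the NUSAP1 probe at -0.13. Read on their brightest probes, 5.67% of detected genes had that order. BUB1B gave 0.09 and -0.18, MAD2L1 0.08 and -0.07, NUSAP1 0.03, 0.06 and -0.13, and BIRC5 0.01, 0.03 and -0.05. CENPF gave -0.02, -0.04 and 0.01, whereas the 2 probes of CCNB1 (0.03 and 0.15), the 3 of CDC2A (0.08, 0.16 and 0.07), of KIF4 (0.07, 0.16 and 0.08) and of TOP2A (0.09, 0.13 and 0.04), and the pairs of KIF23, CDCA8 and CDC25B each lay on one side. Averaging the detected probes of each gene left 20 of 31 above 0, and of the 53 detected probes taken singly 36 were. At an unadjusted p under 0.05, 2 of the 53 probes were higher at 4 h, those of NDC80 and AURKA, against 5.51% of all detected probes, and 2 were lower, the second CDC25C probe and the third of CDC20, against 4.81%.

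**Figure D4:**
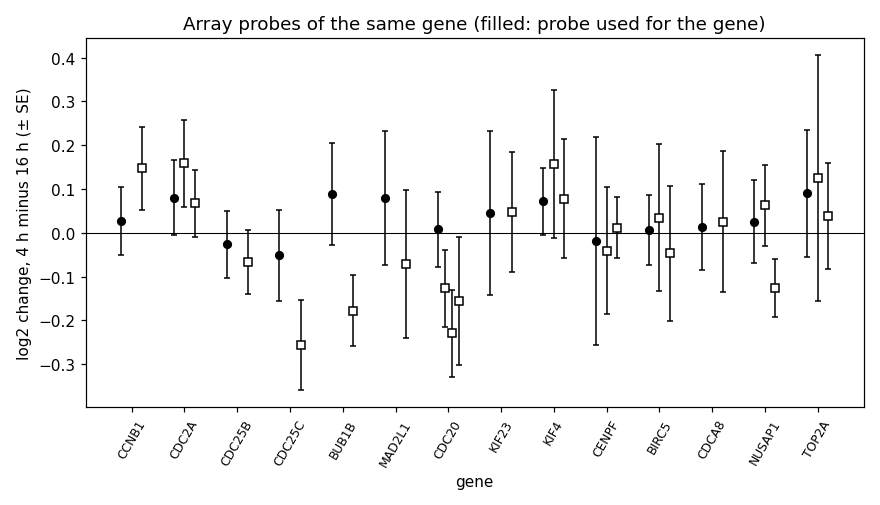
Log2 change, 4 h minus 16 h (vertical axis, ± SE), of each detected probe of the 14 members with more than 1, the probe used for the gene filled and the others open. In CDC20, the filled probe is at 0.01 and the 3 open ones lie below 0.

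The rest of the mitotic program, taken from wider lists, was evenly split. Of 96 further G2/M genes 84 were detected, and 42 of these had a log2 change above 0 (50%), with a median of 0.00. None was called, 5 had an unadjusted p under 0.05 in each direction (against 5.82% of detected genes higher and 5.19% lower), and the difference from the members' share was not tested. PKMYT1, the kinase that restrains Cdk1, read 7.41, 7.68 and 7.61 on the 4 h arrays against 7.96, 8.11 and 8.15 on those of 16 h, with no overlap and a log2 change of -0.51 (SE 0.09, adjusted p = 0.229). Its other detected probes were at -0.09 (adjusted p = 0.959) and -0.28 (adjusted p = 0.889). Beside it in the list of the anaphase promoting complex and mitotic entry (9 of 22 above 0), ANAPC2, a core subunit, was at -0.19 (adjusted p = 0.742). In the list of spindle and cytokinesis (9 of 15), the Aurora A activator BORA, which the array names 6720463M24RIK, was at 0.32 (adjusted p = 0.453) and citron kinase (CIT) at -0.24 (adjusted p = 0.731). Among further kinetochore genes (14 of 27), MIS12 was at 0.31 (adjusted p = 0.731) and SPC24, a subunit of the same complex as NDC80, at -0.40 (adjusted p = 0.754). MIS12 was dim, above noise on 3 arrays at 4 h and 1 at 16 h, so the size of its change is uncertain.

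Condensin and cohesin genes were above 0 in 7 of 14. Their smallest p-values were those of the condensin subunits NCAPD2 (-0.20, adjusted p = 0.878) and NCAPG2 (0.18, adjusted p = 0.949). Further kinesins were above 0 in 3 of 6. The smallest p-values there were those of KIF20B (0.18, adjusted p = 0.919) and KIFC1 (-0.21, adjusted p = 0.930). Of the regulators of G2/M transcription 16 of 20 were detected, 6 with a log2 change above 0. RBBP4, a histone-binding subunit shared by DREAM and other chromatin complexes, read 10.11, 10.19 and 9.94 on the 4 h arrays against 9.58, 9.45 and 9.54 on those of 16 h, a log2 change of 0.56 (SE 0.08, adjusted p = 0.168). Its other detected probes did not repeat that size, with log2 changes of -0.03, 0.14 and 0.17. Of the activators, MYBL2 was at 0.17 (adjusted p = 0.919), with 0.13 and 0.32 on its other detected probes. FOXM1, added after its values were seen, was at -0.0053 (adjusted p = 0.998), with 0.05 on its other detected probe. Genes of G1/S and DNA replication, which act before mitosis, stood above 0 in 18 of 47 (38.3%), with a median of -0.03, none called, and CHAF1B (-0.23, adjusted p = 0.718) and GINS1 (-0.36, adjusted p = 0.721) had the smallest p-values.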

How the data were processed

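For each probe on the 6 arrays the authors deposited a linear intensity with background subtracted and no normalization between arrays. Scanner software and settings are not given in the sources used here. No column of another sample was present. The values were corrected with normexp (offset 50), quantile normalized and taken to log2, and the time points were compared with limma 3.58.1 in R 4.3.3 (lmFit and eBayes, no covariates, all 45281 probes), with Benjamini-Hochberg adjustment over all probes and a threshold of 0.05. An exact permutation test of 3 against 3 cannot go below p = 0.1 and was not used. The deposited intensity carries no read depth; the number of arrays limits the precision. The fit was tested on simulated data with changes larger than that of any member. That test does not show how often changes of the members' size would be called. Genes described in full were the 10 detected members with the smallest p and, in each of the 5 groups, the 2 with the highest mean log2 intensity; of every other list, the 2 with the smallest p. Members and lists were chosen with earlier results of these data known. Replicate numbers were not used as pairs, since deviations of same-numbered arrays correlated at 0.24, 0.17 and -0.47. Alternatives were other background corrections, normalizations, variance models, filters and probe choices, and leaving out each array. Promoter windows are RefSeq's (GRCm38.p6).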

Additional observations from a re-analysis of the deposited data

How the results depend on the processing

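No member passed the adjusted threshold under the reported processing or under any alternative run except median scaling (2 members) and no between-array normalization (6). In both, changes are given relative to the median shift of all detected genes (0.29 and 0.37), under which the members' median was 0.12, with 0.12 for cyclins and kinases, 0.15 for kinesins and 0.11 for the centromere group. Relative to that shift both settings give the same values, in which NEK2 (-0.12) and KIF2C (0.0314) changed sign. NDC80 (0.37) and AURKA (0.33) were called in both, and PLK1 (0.21) and BIRC5 (0.09) without normalization. These calls were made on the unshifted values, so they include the shift of all detected genes. The number of probes called of all on the array, 4 as reported, was 29 with no background correction, 0 with an offset of 16, 832 with median scaling, 2308 without normalization, 2 with cyclic loess, 1 with trended and robust variance, 0 with the replicate block, 0 among probes filtered on dim signal and 0 to 0 with an array left out. The replicate block, with numbers that do not pair the arrays, changed no call of a member. With no background correction the members' median was 0.0775, NEK2 0.601, UBE2C 0.363 and PTTG1 -0.213. The median of cyclins and kinases was 0.0811 with no background correction and 0.0869 with detected probes averaged. That averaging gave a members' median of 0.0195, with 0.00439 for checkpoint and anaphase genes and -0.0125 for the spindle group. Linear scaling gave a members' median of 0.000954 and medians of -0.0121 for cyclins and kinases, -0.0107 for the centromere group and -0.00621 for the spindle group, and turned CENPA (-0.0749), CCNB1 (-0.0185), CDC20 (-0.0138), BIRC5 (-0.0586) and NUSAP1 (-0.0399). With an array left out, the median of the members ran from 0.01 to 0.07, that of cyclins and kinases from 0.00411 to 0.0843, of checkpoint and anaphase genes from 0.014 to 0.0766, of kinesins from -0.0614 to 0.11, of the centromere group from -0.0347 to 0.0808 and of the spindle group from -0.0702 (without 4 h replicate 3) to 0.105 (without 4 h replicate 2). Single genes that changed sign ran from -0.00863 to 0.221 (UBE2C), -0.0159 to 0.0843 (CCNB1), -0.0694 to 0.245 (MAD2L1), -0.073 to 0.0676 (CDC20), -0.0337 to 0.0718 (BIRC5) and -0.0702 to 0.105 (NUSAP1). Some alternatives were chosen after seeing the data: the 18S separation as a term, under which NUSAP1 was -0.012, its 3 high and 3 other arrays apart, with 15 members above 0 and a median of -0.00389 on the others and a median of 0.089 on the high ones, and each probe for itself. In all, 11 of 117 alternative values of the medians and 22 of 256 of the named genes had the other sign from the reported value, and 6 values of named genes gained a call. Not all of these values were free to turn. Trended and robust variance and the replicate block change the errors and leave the estimates as reported. Median scaling and no between-array normalization give the same relative values. The filters on the noise limit also left every median as reported. Signal near the noise limit bounds what could be read of CCNA2, NEK2 and MIS12.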
